A study of Mus musculus with 2 samples.

Results

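A group of 10 genes that move iron into, within and out of cells was examined in mouse colon: Slc11a2, Cybrd1, Steap4 and Tfrc for uptake, Slc40a1 and Heph for export, Fth1 for storage, Slc46a1 and Hmox1 for heme, and Lcn2 for the binding of iron-loaded siderophores. The probe sets were chosen by name alone, as every probe set of the array whose only annotated gene symbol is a listed one. This gave 23 probe sets for the 10 genes, of 45101 probe sets in all, and 3 of the 23 are control probe sets for Tfrc. The RNA came from scrapings of the colonic mucosa. The labels do not explain the name Hif-2αΔIE, and it is taken, from background knowledge of the strain, to mean loss of Hif-2α from the intestinal epithelium; the sources used here do not say which promoter drives the recombinase. Their controls were Hif-2αF/F mice, which carry the conditional alleles without the deletion. All were C57BL/6 mice, 6 to 8 weeks old by the sample labels and 7 weeks by the design text, and all had received 3% dextran sulfate sodium (DSS), which damages the lining of the colon, for 3 days, so no array shows the uninjured colon. The design text counts 5 Hif-2αΔIE and 6 Hif-2αF/F mice, while the data hold 1 array per genotype; the sources used here do not say whether RNA was pooled. There is therefore no spread between replicates, no test, no standard error and no p-value, and every difference below compares a single array with a single array.

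Iron enters enterocytes from the lumen after reduction at the apical membrane and leaves across the basolateral membrane through ferroportin, where a ferroxidase helps load it onto transferrin; what is not exported is held in ferritin. In the duodenum HIF-2α is known to induce the apical importer, the reductase and ferroportin, and the iron regulatory proteins adjust ferritin and the transferrin receptor after transcription. The colon takes up less iron than the duodenum, and in the injured colon lipocalin 2, which withholds iron from bacteria, is known as a marker of inflammation.

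Expression is given on the log2 scale as summarised by RMA (robust multi-array averaging), and a difference is Hif-2αΔIE minus Hif-2αF/F on that scale. A probe set or gene was taken as above the filter where its higher value reached 6.11, the median over all probe sets. RMA gives no detection call at any level, so passing the filter is not a call of detected expression. The level of a probe set is not comparable with that of another, so each is set only against itself on the other array. As a guide to measurement error within these arrays, the differences shown by the 2 brightest probe sets of a gene lay a median of 0.10 apart over 5110 genes, and 95% lay within 0.41 (the 95th percentile of the gap); this covers probe sets on the same RNA and not variation between mice. Cre recombinase control probe sets read 7.86 to 10.01 on the Hif-2αΔIE array and 2.92 to 4.22 on the Hif-2αF/F array. The 41 other bacterial control probe sets differed by -0.17 to 0.43, and the source of the Cre signal was not tested. The brightest probe set of Epas1, the gene of HIF-2α, read 11.77 on the Hif-2αΔIE array and 11.90 on the Hif-2αF/F array, a difference of -0.13. Its other probe set differed by 0.16, so the sign at Epas1 depended on the probe set, and where either lies relative to the deleted part was not determined. Among partner and regulator genes of HIF, Egln3, which encodes an oxygen-sensing prolyl hydroxylase, read 9.66 on the Hif-2αΔIE array and 11.39 on the Hif-2αF/F array, 3.33-fold lower, with differences of -1.73 and -1.67 by its 2 probe sets. By their brightest probe sets Hif1a differed by -0.97, Egln1 by -0.27, Vhl by -0.15 and Arnt by -0.03. Over all its probe sets Hif1a ran from -1.17 to -0.56, and 2 of the 3 above the filter were at least 2-fold lower. Egln1 ran from -0.38 to -0.27. Vhl ran from -0.15 to 0.17 and Arnt from -0.03 to 0.28, so the signs of Vhl and Arnt depended on the probe set. All 18 colon epithelium markers were above the filter on both arrays.

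Steap4, Slc46a1 and Lcn2 were lower on the Hif-2αΔIE array by more than 2-fold, and the genes of the transcellular route (Slc11a2, Slc40a1, Heph), the transferrin receptor gene Tfrc and the ferritin gene Fth1 were all within 0.44 of equality. Of the 16 iron probe sets above the filter, 5 were at least 2-fold lower and 0 at least 2-fold higher, beside 4.35% lower and 0.983% higher among all 20253 named probe sets above the filter. Counted by gene, with the brightest probe set standing for the gene, 3 of the 9 above the filter were lower and 0 higher, beside 5.30% and 1.15% of 11899 genes. The median was -0.17 over these 9 genes and 0.02 over all genes above the filter. The 10 genes were chosen with earlier results of these arrays known, so these shares describe the group and support nothing further.

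Because these 3 genes were all lower on the Hif-2αΔIE array, and because HIF-2α binds a short hypoxia response element, the 250 bases before their annotated starts are shown, with those of Cybrd1 as a gene of the known duodenal HIF-2α response that was not at 2-fold. All Cybrd1 probe sets were below the filter on both arrays, so Cybrd1 is not shown to be unchanged. RefSeq promoters of build GRCm38.p6 were found for 6 of the 10 genes in 8 entries. None was found for Slc11a2, Slc40a1, Heph or Hmox1, so the promoters of those genes were not searched. The motifs were searched on both strands and were the hypoxia response element core as ACGTG and as GCGTG, an NF-kB form GGGANNNCC and a STAT form TTCNNNGAA, the inflammatory pair because cytokine signals are known to act on Steap4 and Lcn2. Capitals mark every match, and sequences run 5′ to 3′ along the gene. The regions were chr5:7960222-7960471 (plus strand) for Steap4, chr11:78465451-78465700 (plus strand) for Slc46a1, chr2:32387740-32387989 (minus strand) for Lcn2 and chr2:71117804-71118053 (plus strand) for Cybrd1.
Steap4: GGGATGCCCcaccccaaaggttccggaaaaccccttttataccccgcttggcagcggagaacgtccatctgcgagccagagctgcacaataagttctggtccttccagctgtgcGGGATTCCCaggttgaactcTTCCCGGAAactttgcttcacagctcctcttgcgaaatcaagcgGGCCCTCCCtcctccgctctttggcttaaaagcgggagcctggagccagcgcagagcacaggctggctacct
Slc46a1: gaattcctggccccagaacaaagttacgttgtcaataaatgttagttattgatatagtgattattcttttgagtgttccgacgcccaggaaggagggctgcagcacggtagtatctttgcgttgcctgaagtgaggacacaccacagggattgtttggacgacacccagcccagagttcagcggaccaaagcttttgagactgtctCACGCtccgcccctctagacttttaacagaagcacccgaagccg
Lcn2: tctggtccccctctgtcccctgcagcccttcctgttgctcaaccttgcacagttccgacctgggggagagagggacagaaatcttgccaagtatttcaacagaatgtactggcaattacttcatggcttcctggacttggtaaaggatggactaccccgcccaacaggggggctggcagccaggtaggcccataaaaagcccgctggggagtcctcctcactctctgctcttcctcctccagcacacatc
Cybrd1: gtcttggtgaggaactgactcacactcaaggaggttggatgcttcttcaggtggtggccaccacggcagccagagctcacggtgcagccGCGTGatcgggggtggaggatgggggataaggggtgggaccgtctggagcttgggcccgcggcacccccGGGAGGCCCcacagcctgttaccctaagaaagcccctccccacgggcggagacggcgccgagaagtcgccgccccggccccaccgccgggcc

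The Steap4 window held no core of either form. It held the NF-kB form starting 250, 136 and 72 bases before the start site, the match at 136 reading the same form on both strands, and the STAT form at 116. The Slc46a1 window held GCGTG on the opposite strand at 44 bases, the Lcn2 window none of the motifs, and the Cybrd1 window GCGTG at 161 bases and the NF-kB form at 92. Over all 32851 promoter windows of this length, 38.6% held a core in at least 1 form (16.6% ACGTG, 28.2% GCGTG), 15.8% the NF-kB form and 7.02% the STAT form. Of the 8 windows of iron genes 5 held a core, belonging to Cybrd1, Tfrc, Fth1 and Slc46a1, 4 held the NF-kB form, belonging to Steap4, Cybrd1 and both entries of Tfrc, and 1, of Steap4, held the STAT form. The windows of both Tfrc entries overlap, and their NF-kB match is 1 site counted in each. The NF-kB form thus stood before genes at and short of 2-fold alike, and this motif and the STAT form were chosen after the promoters had been seen. Such short strings occur in many promoters, and a match or its absence in this window is a description of the letters only.

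**Figure D1:**
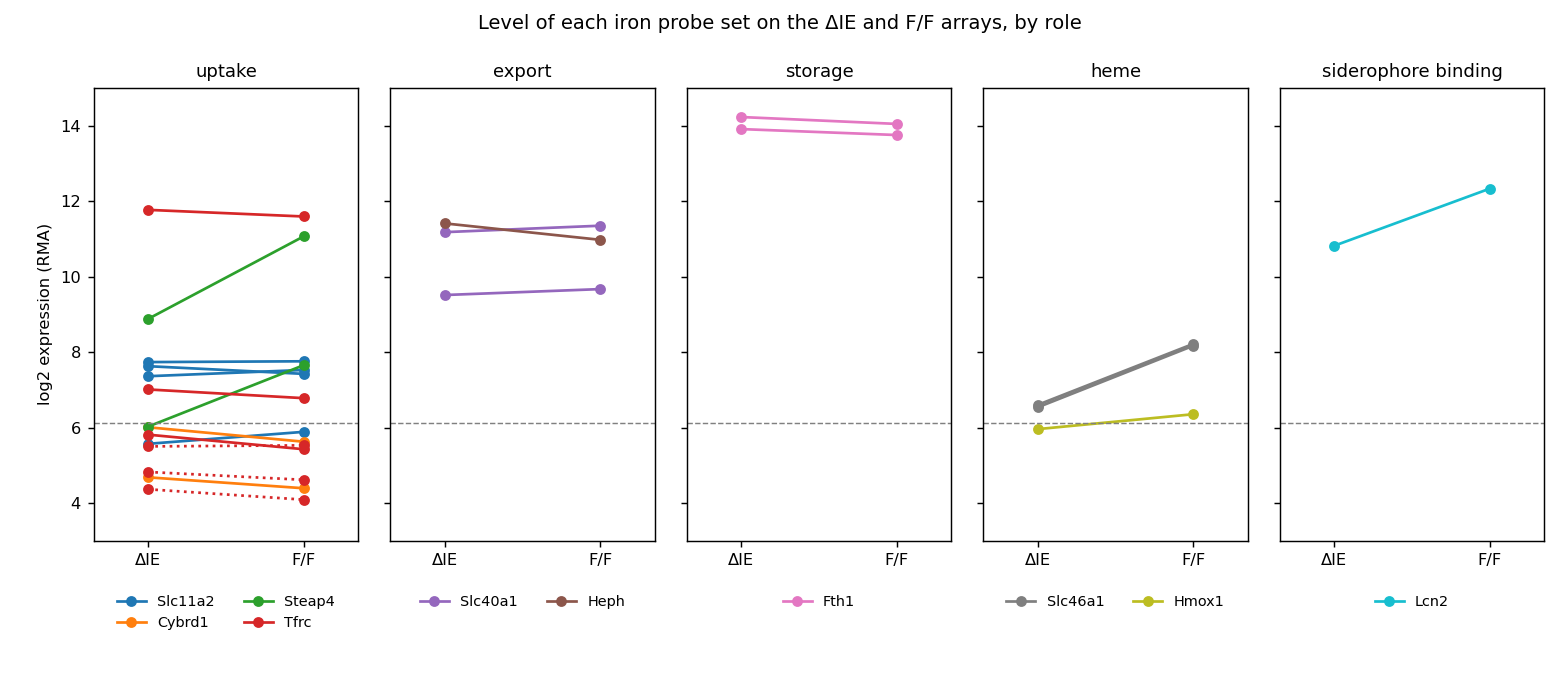
Log2 expression (RMA) of the 23 iron probe sets on the Hif-2αΔIE array (left in each panel) and the Hif-2αF/F array (right), 1 line per probe set, coloured by gene and split by role. Dotted lines are the Tfrc control probe sets and the dashed line is the expression filter at 6.11; the lines of Steap4, Slc46a1 and Lcn2 slope down to the Hif-2αΔIE side, and the ends of every other line lie at most 0.44 apart.

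The uptake genes were split, with a difference at the reductase Steap4 and none of 2-fold elsewhere. Steap4 encodes a membrane metalloreductase that reduces ferric iron and cupric copper and is known to be induced by inflammatory cytokines. Its brighter probe set read 8.88 on the Hif-2αΔIE array and 11.07 on the Hif-2αF/F array, a difference of -2.19, or 4.56-fold lower. Only 29 of the 11899 genes above the filter, itself included, were as low (0.244%). The dimmer Steap4 probe set read 6.03, below the filter, on the Hif-2αΔIE array and 7.65 on the Hif-2αF/F array, a difference of -1.63. Both probe sets thus gave the same direction, and they lay 0.56 apart in size, beyond the 0.41 within which 95% of genes lay.

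Slc11a2 encodes DMT1, the proton-coupled importer of ferrous iron at the apical membrane. Its 3 probe sets above the filter read 7.73, 7.63 and 7.36 on the Hif-2αΔIE array, against 7.76, 7.42 and 7.53 on the Hif-2αF/F array. The differences were -0.02, 0.20 and -0.17, so they went both ways and spanned 0.37. The remaining probe set, below the filter, differed by -0.32, with 5.57 in Hif-2αΔIE and 5.89 in Hif-2αF/F. No direction can be given for this gene: its sign depended on which probe set was read.

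Cybrd1 encodes duodenal cytochrome b, the apical ferric reductase. Its 2 probe sets read 6.01 and 4.68 on the Hif-2αΔIE array and 5.63 and 4.39 on the Hif-2αF/F array, all below the filter, with differences of 0.38 and 0.29. Both arrays thus held this gene in the lower part of the scale, where RMA compresses differences. Tfrc encodes the receptor that takes up transferrin-bound iron from the basolateral side. Its brightest probe set read 11.77 on the Hif-2αΔIE array and 11.59 on the Hif-2αF/F array, a difference of 0.18, and its second read 7.01 in Hif-2αΔIE and 6.78 in Hif-2αF/F, a difference of 0.23. The third, below the filter, differed by 0.39. Its 3 control probe sets, placed towards the 3' end, the middle and the 5' end of the transcript, read 5.50, 4.82 and 4.36 on the Hif-2αΔIE array and 5.53, 4.62 and 4.09 on the Hif-2αF/F array, with differences of -0.03, 0.21 and 0.28. Of the 6 Tfrc probe sets 5 were therefore slightly higher on the Hif-2αΔIE array, all by less than 0.41. Only 2 of the 6 were above the filter, both among these 5, and the 3 control probe sets were below it on both arrays. From the 3' to the 5' control the Tfrc signal dropped by 1.14 on the Hif-2αΔIE array and by 1.44 on the Hif-2αF/F array; the part of RNA integrity in the Tfrc values was not tested.

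Neither of the export genes differed by 2-fold between the arrays. Slc40a1 encodes ferroportin, the iron exporter of enterocytes and of macrophages that recycle iron. Its probe sets read 11.18 and 9.51 on the Hif-2αΔIE array, against 11.35 and 9.67 on the Hif-2αF/F array. The differences of -0.17 and -0.16 lay 0.014 apart, and 25.8% of all genes above the filter were as low or lower. Heph encodes hephaestin, the multicopper ferroxidase that works beside ferroportin. It read 11.41 on the Hif-2αΔIE array and 10.97 on the Hif-2αF/F array, a difference of 0.44 from 1 probe set, and 7.81% of genes above the filter were as high or higher. It was the highest of the 10 genes and still short of 2-fold.

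Storage was represented by Fth1, the ferritin heavy chain with ferroxidase activity. Its 2 probe sets read 14.23 and 13.91 on the Hif-2αΔIE array and 14.05 and 13.75 on the Hif-2αF/F array, near the top of the scale, which ended at 14.48. The differences were 0.18 and 0.16. Ferritin is controlled mainly at translation, which these arrays do not measure.

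The heme genes differed from each other in size. Slc46a1 encodes a proton-coupled transporter that was described as a heme carrier and is best known as the intestinal folate transporter. Its 2 probe sets read 6.60 and 6.54 on the Hif-2αΔIE array, against 8.22 and 8.17 on the Hif-2αF/F array. The differences of -1.62 and -1.63 lay within 0.02 of each other, the brighter being 3.07-fold lower, and 1.34% of genes above the filter were as low. Hmox1 encodes heme oxygenase 1, the inducible enzyme that opens the heme ring and releases its iron. It read 5.96, below the filter, on the Hif-2αΔIE array and 6.35 on the Hif-2αF/F array, a difference of -0.39 from 1 dim probe set.

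Lcn2 encodes lipocalin 2, a secreted protein of epithelium and neutrophil granules that captures bacterial siderophores together with their iron. Its single probe set read 10.82 on the Hif-2αΔIE array and 12.33 on the Hif-2αF/F array, a difference of -1.52, or 2.86-fold lower. Among genes above the filter 1.82% were as low. The probe set that carries this value is of a type that can match several transcripts of a gene, as are both of Steap4, and no second probe set was there to set beside it.

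**Figure D2:**
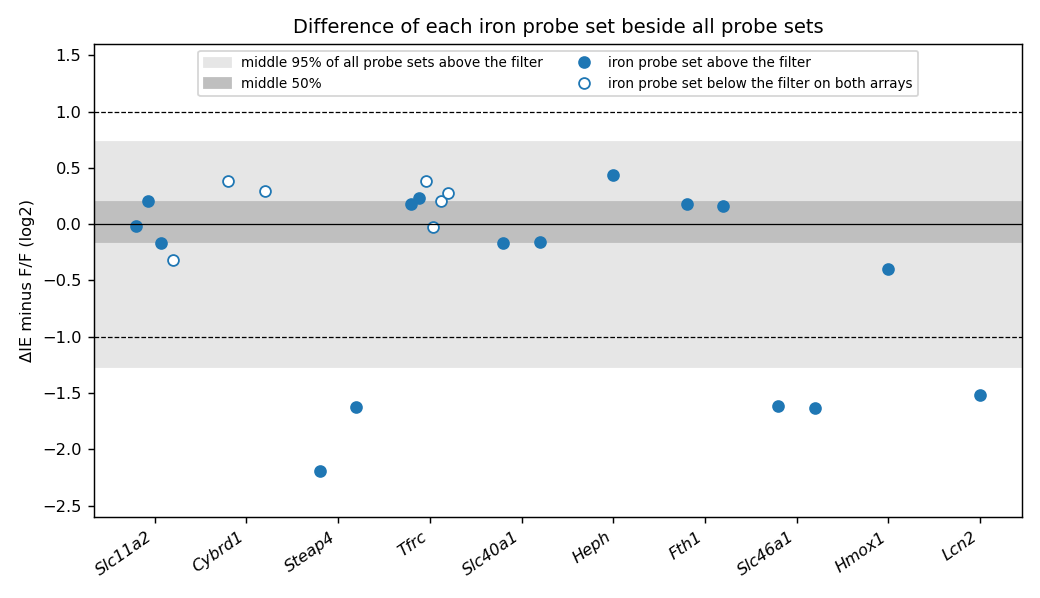
Difference, Hif-2αΔIE minus Hif-2αF/F (log2), of each of the 23 iron probe sets by gene; open circles lie below the filter on both arrays, dashed lines mark 2-fold and the bands hold the middle 50% (-0.16 to 0.19) and 95% (-1.27 to 0.73) of the 20253 named probe sets above the filter. The 5 probe sets of Steap4, Slc46a1 and Lcn2 lie below the wider band, and all others lie inside it.

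The other genes of iron handling were then read from 9 lists that also hold the 10 genes. Of 59 listed genes above the filter, 6 were at least 2-fold lower and 2 at least 2-fold higher, with a median of 0.01; outside the 10 genes the counts were 3 and 2 of 50, with a median of 0.03. Over all genes above the filter 5.30% were lower and 1.15% higher by 2-fold, so the lower count outside the 10 genes lay near the share of the whole array. The 3 lower were Cp, Hp and Ltf, and the 2 higher were Cubn and Slc39a8.

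Among uptake and reduction genes the median over 14 genes was -0.0044 (7 below 0 and 7 above). Cubn encodes cubilin, an endocytic receptor that can take up transferrin in kidney; it read 7.18 on the Hif-2αΔIE array and 5.59, below the filter, on the Hif-2αF/F array, and its second probe set, below the filter on both arrays, differed by 1.43. Slc39a8 encodes the metal importer ZIP8 and read 9.31 on the Hif-2αΔIE array and 8.30 on the Hif-2αF/F array, 2.02-fold higher, with a second probe set at 1.22. Slc39a14, the gene of the related importer ZIP14, differed by -0.09. Of the other STEAP family genes, Steap2 differed by -0.78, Steap1 by -0.28 and Steap3 by 0.14, none at 2-fold, so Steap4 was the member of the family past that threshold. Slc11a1, which encodes the phagosomal metal transporter of macrophages and neutrophils and is related to Slc11a2, read 7.28 in Hif-2αΔIE and 8.14 in Hif-2αF/F, a difference of -0.86.

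Of the multicopper ferroxidase genes, Cp was at least 2-fold lower and the others were not at 2-fold. Cp encodes ceruloplasmin, the plasma counterpart of hephaestin and an acute phase protein. Its brightest probe set read 8.44 on the Hif-2αΔIE array and 9.93 on the Hif-2αF/F array, 2.80-fold lower. Of its 7 probe sets above the filter 6 were at least 2-fold lower, and all 8 were lower, with differences between -0.41 and -1.72. Heph differed by 0.44, and Hephl1, a gene of the same family, was below the filter at 4.36 on both arrays.

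Genes of heme transport and breakdown (10 above the filter) had their median at -0.14, and 2 were at least 2-fold lower. Beside Slc46a1 the other was Hp, the gene of haptoglobin, which captures free hemoglobin; it read 8.99 on the Hif-2αΔIE array and 10.48 on the Hif-2αF/F array, 2.81-fold lower. The heme exporter gene Flvcr1 differed by -0.63 by its brighter probe set and by 0.16 by its dimmer one, below the filter. Hmox2, the constitutive heme oxygenase gene, differed by 0.00 and the biliverdin reductase genes Blvra and Blvrb by 0.09 and 0.17. Over all genes above the filter the median was 0.02, and 6275 of 11899 lay above 0. For heme synthesis the median was 0.13, and 7 of 9 genes lay above 0, none at 2-fold. Its largest differences were at Abcb6, a porphyrin transporter gene, which read 9.65 on the Hif-2αΔIE array and 8.82 on the Hif-2αF/F array (0.83), and at Alas1, the rate-limiting enzyme of heme synthesis outside red cells, which read 11.63 on the Hif-2αΔIE array and 10.87 on the Hif-2αF/F array (0.77; 0.74 by its second probe set). The mitochondrial iron and cluster assembly list lay a little above 0, with a median of 0.21 and 7 of 9 genes above 0, led by Slc25a37 (mitoferrin 1, 0.35), Glrx5 (0.34) and Isca1 (0.32).

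In the siderophore list, all 3 genes above the filter were below 0. Ltf, the gene of the iron-binding granule protein lactoferrin, read 12.45 on the Hif-2αΔIE array and 13.63 on the Hif-2αF/F array, 2.26-fold lower, and Slc22a17, which encodes a proposed receptor for lipocalin 2, differed by -0.06. The iron regulatory protein genes Aco1 and Ireb2 differed by 0.19 and 0.22, and Fbxl5, whose product targets the second of these for degradation when iron is plentiful, by -0.18. Hamp, the gene of hepcidin, the hormone that closes ferroportin, was below the filter on both arrays at 4.08 in Hif-2αΔIE and 4.32 in Hif-2αF/F. Among genes that control it, Bmp2 differed by -0.89 and Hfe by -0.28. Ncoa4, the cargo receptor for ferritin breakdown, differed by -0.02.

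**Figure D3:**
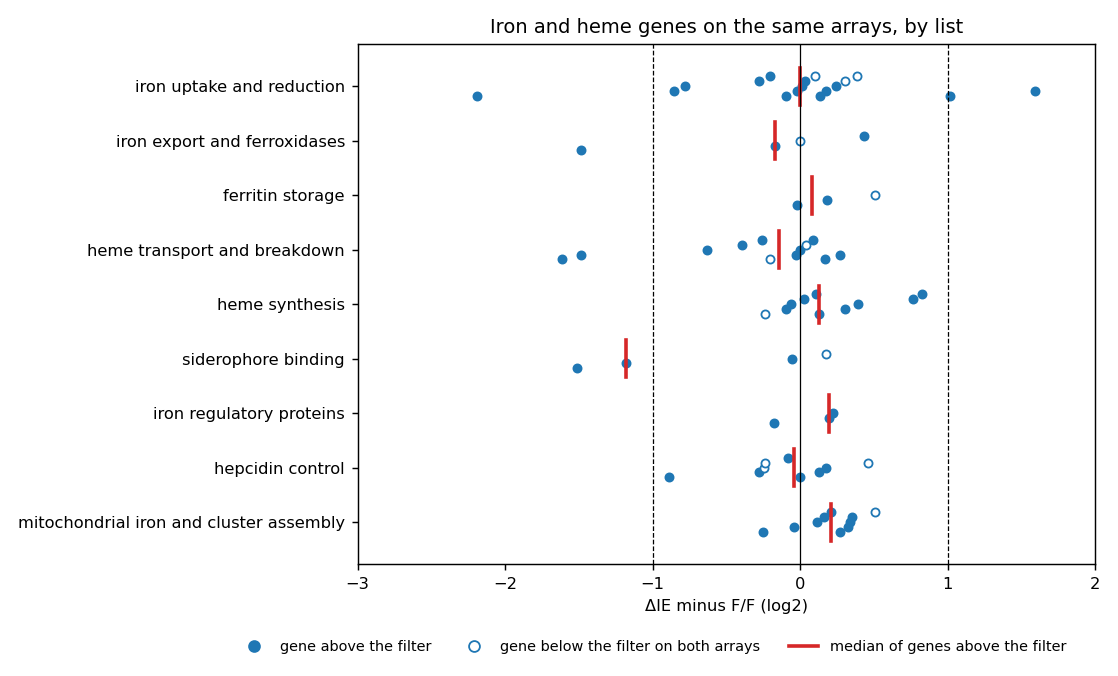
Difference, Hif-2αΔIE minus Hif-2αF/F (log2), of each gene in 9 lists of iron and heme genes, by its brightest probe set; red bars are the medians of genes above the filter, open circles lie below it on both arrays and dashed lines mark 2-fold. The siderophore list has its median at -1.18, and the medians of the other lists lie between -0.17 and 0.21. The siderophore median rests on 3 genes and is the value of Ltf, with Lcn2 at -1.52 and Slc22a17 at -0.06. Bdh2, below the filter on both arrays, lies at 0.18.

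Markers of other cells and of position along the gut differed on the same arrays, and these values belong beside the differences of Steap4, Slc46a1, Lcn2, Cp, Hp, Ltf and Slc11a1. With no filter, 677 of all 18193 genes were at least 2-fold lower in Hif-2αΔIE and 145 at least 2-fold higher. These totals stand beside the unfiltered marker counts here and in the next paragraph. All 15 neutrophil markers on the array were lower in Hif-2αΔIE, 11 by 2-fold or more, with a median of -1.49. The 13 above the filter, 1 of them in Hif-2αF/F only, had a median of -1.56, and their log2 levels summed to 117.8 on the Hif-2αΔIE array and 136.6 on the Hif-2αF/F array. Sums of log2 levels, here and below, are not amounts of RNA, and the ratio of such sums is not a fold difference. Camp, a neutrophil granule gene, read 8.21 in Hif-2αΔIE and 10.08 in Hif-2αF/F, and the early granule genes Mpo and Elane were below the filter on both arrays. All 17 macrophage and monocyte markers on the array were also lower, 8 by 2-fold or more, with a median of -0.96. The 15 above the filter had a median of -1.10, and their levels summed to 118.6 on the Hif-2αΔIE array and 133.6 on the Hif-2αF/F array. Marco was below the filter on the Hif-2αΔIE array only, and Spic and Vsig4, markers of macrophages that recycle red cells, were below it on both. Lcn2 and Ltf are themselves neutrophil granule products, and Ltf is 1 of the 15 neutrophil markers, so it enters their counts, medians and sums. In scrapings, fewer cells of a type and less RNA per cell cannot be told apart, and the part of neutrophils or macrophages in the iron differences was not tested.

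Of 10 posterior Hox genes on the array 8 were lower in Hif-2αΔIE, 6 by 2-fold or more, with a median of -1.42. Hoxc10 (0.34) and Hoxc13 (0.10) were higher in Hif-2αΔIE, and they and Hoxd12 were below the filter on both arrays. The 7 above the filter had a median of -1.49 and summed levels of 45.8 in Hif-2αΔIE and 57.9 in Hif-2αF/F, but Hoxa10, Hoxa13 and Hoxd11 passed it in Hif-2αF/F only, so that median is given as a description. Hoxb13 read 7.94 in Hif-2αΔIE and 10.76 in Hif-2αF/F, and Hoxd13 read 7.72 in Hif-2αΔIE and 10.54 in Hif-2αF/F, above the filter on both arrays. Of 13 squamous epithelium markers on the array 11 were lower in Hif-2αΔIE, 8 by 2-fold or more, with a median of -1.17. Lor (0.60) and Ivl (0.22, below the filter on both arrays) were higher in Hif-2αΔIE. The 11 markers above the filter, 8 of them at least 2-fold lower, had their median at -1.21, with sums of 95.4 in Hif-2αΔIE and 107.0 in Hif-2αF/F. Krt1 passed the filter in Hif-2αF/F only and Lor in Hif-2αΔIE only. The 7 small intestinal enterocyte markers above the filter had a median of 0.55, 5 of them above 0. Slc10a2, the gene of the ileal bile acid transporter, was the 1 at 2-fold (9.29 in Hif-2αΔIE and 8.19 in Hif-2αF/F, 2.13-fold higher), and the alkaline phosphatase gene Alpi differed by 0.99. The 7 had sums of 66.5 in Hif-2αΔIE and 63.6 in Hif-2αF/F, and 8 of the 15 on the array, among them Fabp1, Lct, Apoa4 and Gata4, were below the filter on both arrays. Iron and folate transporters change along the gut, and the part of position in the differences of Slc46a1 and Steap4 was not tested. Colon epithelium markers had their median at 0.15 over 18 genes, with Cdx2 alone at 2-fold (higher), and sums of 231.3 in Hif-2αΔIE and 227.8 in Hif-2αF/F. All 6 erythroid markers on the array were below the filter on both, at 2.97 to 5.08 in Hif-2αΔIE and 2.83 to 5.30 in Hif-2αF/F.

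**Figure D4:**
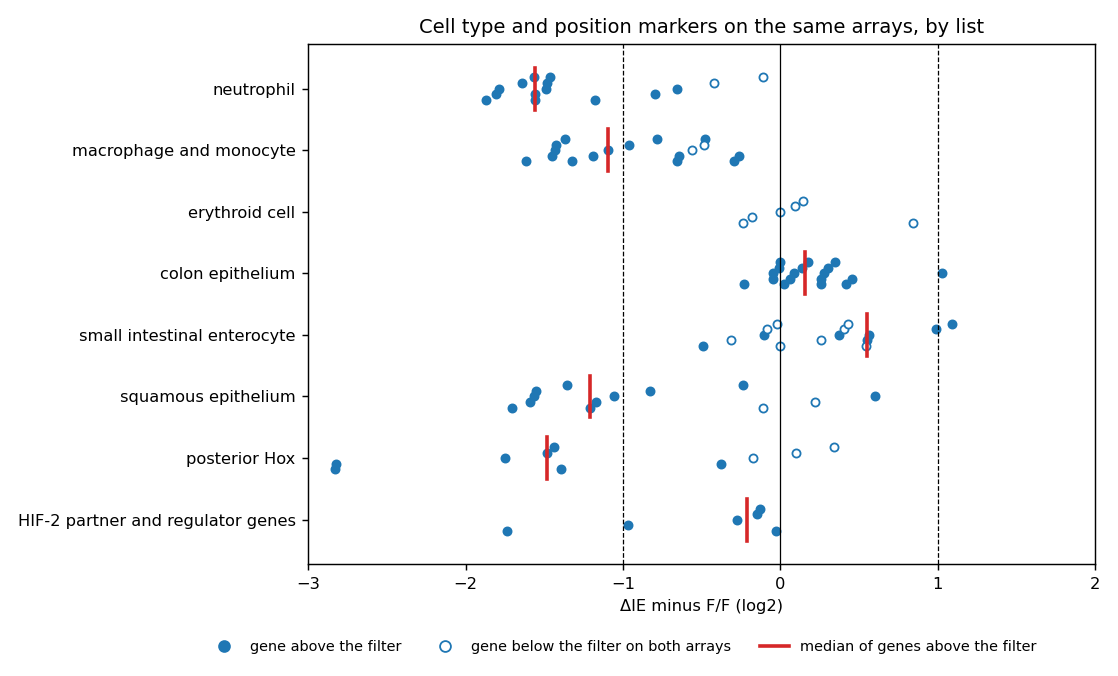
Difference, Hif-2αΔIE minus Hif-2αF/F (log2), of markers of cell types and of position on the same arrays, by the brightest probe set of each gene; red bars are medians of genes above the filter, open circles lie below it on both arrays and dashed lines mark 2-fold. Neutrophil (-1.56), macrophage (-1.10), squamous (-1.21) and posterior Hox (-1.49) medians lie left of 0, and the colon epithelium median lies at 0.15.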

How the data were processed

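Total RNA was extracted with Trizol and 250 ng was amplified with biotin labelling, per the labels' protocols. The deposited values are log2 expression, made by the authors with the affy package and RMA, as the submitters' processing notes record; the sources used here do not state versions, which arrays were normalized together or any filter. Quantile normalization, part of RMA, sets the arrays' distributions nearly equal (sorted columns at most 0.16 apart). The 2 samples were assigned by the genotype label.

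By the platform annotation 34958 probe sets have 1 symbol; 932 with several and 9211 without any stayed unnamed. A gene took its probe set with the highest mean, with 64 control probe sets left out, which gave 18193 genes and 11899 above the filter. Of 77 iron and 112 marker symbols, 71 and 100 were found. Members and lists were chosen with earlier results of these data known, and the NF-kB and STAT motifs after the promoters had been seen. Named are all member probe sets, in each iron list genes at 2-fold or up to 3 of largest difference, and up to 3 per marker list; other named genes were chosen after their values were seen. Fold counts and the lowess correction were tested on simulated data, with planted differences well beyond 2-fold in bright probe sets and with little noise. That check does not measure how well differences near 2-fold are called. Alternatives were averaged probe sets, no multi-transcript probe sets, centring, lowess (span 0.3), 3 filters and thresholds of 1.5-fold and 3-fold. Python 3.11.15, numpy 2.4.6, pandas 2.3.3, statsmodels 0.14.6 and matplotlib 3.10.9 were used.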

Additional observations from a re-analysis of the deposited data

How the results depend on the processing

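With 1 array per genotype no replicate could be left out, and depth does not apply; the number of arrays limits every value. No paired analysis was possible because each genotype has 1 array and the labels carry no shared replicate numbers. A gene counted as moved beyond a shift of 0.41, a list median beyond 0.10 and a count beyond 1.5 times. None of the 10 genes moved under averaging, centring or lowess, and none that kept a value moved on removal of multi-transcript probe sets. Part of this outcome was fixed beforehand. Centring shifts all genes alike, and averaging cannot change Heph, Hmox1 or Lcn2, which have 1 probe set each. The limit of 0.41 also exceeds the whole difference of Slc11a2, Slc40a1, Tfrc, Fth1, Cybrd1 and Hmox1. Slc11a2 ran from -0.08 to 0.20, so its sign changed without counting as moved. The Steap4 difference ranged from -2.24 to -1.91, Slc46a1 from -1.65 to -1.60 and Lcn2 from -1.56 to -1.50. Without probe sets ending in _s_at, _x_at or _a_at, Steap4, Lcn2 and Fth1 have no value, so 1 of the genes, Slc46a1, remained at 2-fold lower. The count of listed iron genes at least 2-fold higher was 1 with the filter at the 75th percentile, with the filter on both arrays, with lowess, and without multi-transcript probe sets. At 1.5-fold, 10 listed iron genes were lower and 4 higher; at 3-fold, 2 and 1. Leaving out the 10 genes, chosen after seeing the data, left 3 lower. Of all genes, 1267 were lower and 520 higher at 1.5-fold, 177 and 20 at 3-fold, and 381 were at least 2-fold lower with the filter at the 75th percentile. With probe sets averaged, the macrophage median was -0.83 and the posterior Hox median -1.62, which was also its value without multi-transcript probe sets. With no filter on the marker lists, chosen after seeing the data, the macrophage median was -0.96 and the enterocyte median 0.37.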

Other observations

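Some listed genes not yet given had these values. The sideroflexin gene Sfxn1, named for iron but known as a mitochondrial serine carrier, differed by 0.11 and 0.17 by its 2 probe sets. The ferritin Ftmt of mitochondria was below the filter at 4.37 in Hif-2αΔIE and 3.86 in Hif-2αF/F. Tmprss6, which encodes the protease that restrains hepcidin in liver, had an identical value, 6.73 when rounded, on both arrays; 1699 probe sets of the table had equal values in both columns, and why was not tested.

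Control probe sets at the 3' and 5' ends give a check of RNA integrity. For Gapdh the 3' minus 5' difference was -0.02 on both arrays, and for Actb it was 0.42 on the Hif-2αΔIE array and 0.40 on the Hif-2αF/F array.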
